A study of Mus musculus with 8 samples.

Results

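The G1/S cyclins and their kinases were followed through the loss of either of a pair of ATAC coactivator subunits in mouse embryonic stem cells (ESCs). The 10 genes are the E-type cyclins Ccne1 and Ccne2, the D-type cyclins Ccnd1, Ccnd2 and Ccnd3, the A-type cyclin Ccna2, the kinases Cdk2, Cdk4 and Cdk6 and the inhibitor Cdkn1b. They are 10 of 55401 annotated genes in each count table, and all 10 were among the 17532 genes with enough reads to be tested. Ccne2 was chosen by its log2 fold change against control, because its RNA fell in both depletions in these same libraries, so its difference from control is given as a description without a test, and the other 9 genes were taken for their place in the same pathway.

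Total RNA of ESCs was sequenced in 8 libraries of 3 groups: 2 Control, 3 Zzz3 auxin and 3 Yeats2 auxin. The auxin groups are Zzz3-AID and Yeats2-AID lines, in which the ATAC core subunit ZZZ3 or YEATS2 carries an auxin-inducible degron, a tag that lets the plant F-box protein Tir1 mark the fusion for degradation once auxin is given. Auxin was applied at 500 µM for 24 h, and the groups are called ZZZ3 depletion and YEATS2 depletion after the tagged subunit, whose protein level was not part of these data. According to the growth protocol of all samples, cells were kept in serum with leukaemia inhibitory factor, G418 to hold Tir1, and a pair of inhibitors (2i), 3 µM CHIR99021 against GSK3 and 1 µM PD0325901 against MEK. The labels give neither the line nor the treatment of the controls. The study's methods speak of a wild-type reference and its supplement of the degron lines with DMSO, the solvent, so what the 2 controls were is not settled here, and loss of the subunit, auxin itself and any difference between lines cannot be told apart. Nothing in the labels says that replicates were separate cultures, and P values then measure only the spread between these libraries. The study set such RNA levels against rates of RNA synthesis, which were not analysed here.

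Each library held 14315120 to 27884704 reads in genes, with the fewest in Zzz3 auxin replicate 3. All 9 markers of naive ESCs were detected, at a summed 4314 to 5099 library-size scaled counts (CPM, scaled by TMM factors), whereas 5 of 11 markers of primed or lineage-committed cells reached a mean of 1 CPM and summed to 26.9 to 41.5 CPM. Of 8 fibroblast markers, 1 reached 1 CPM (Pdgfra), Dcn was at 0 in all libraries, and the sum was 4.14 to 8.63 CPM. Zzz3 RNA fell after ZZZ3 depletion, with a log2 fold change (FC) of -0.95 (SE 0.14, edgeR adjusted P = 0.0187), a call that was lost without either control, Zzz3 auxin replicate 1, or Yeats2 auxin replicate 1 or 3 (adjusted P = 0.0515 to 0.293), and with only Control and Zzz3 auxin fitted (0.159). Yeats2 RNA stood at 90.9 and 95.8 CPM in the controls and 77.3, 103 and 43.7 CPM after YEATS2 depletion, with a log2 FC of -0.32 (adjusted P = 0.605). Leaving out Yeats2 auxin replicate 3 gave -0.05, and leaving out replicate 2 gave -0.62. A degron acts on the protein, so RNA levels do not show whether depletion worked. The libraries also differed in how read numbers changed with the GC content of genes: relative to the mean library, GC-rich genes stood lower than GC-poor genes by -0.60 on the log2 scale in Control replicate 1 and higher by 0.43 in Zzz3 auxin replicate 3, while the other 6 libraries lay between -0.08 and 0.16.

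Passage from G1 into S phase is driven by cyclins that switch on cyclin-dependent kinases (CDKs). In most cells, cyclin D with CDK4 or CDK6 and then cyclin E with CDK2 phosphorylate the retinoblastoma (pocket) proteins, which frees E2F factors to transcribe S phase genes, cyclin E and cyclin A among them. Cyclin A with CDK2 carries the cell through S phase, and p27, encoded by Cdkn1b, binds cyclin-CDK complexes and holds back cyclin E-CDK2. ESCs are known for a short G1 phase with high CDK2 activity, and inhibition of MEK, as in 2i medium, is known to lower cyclin D levels.

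Ccne2 was the gene of the set whose RNA differed most from control. In the control libraries it stood at 59.8 and 56.6 CPM, after ZZZ3 depletion at 24.8, 26.4 and 29.1 CPM and after YEATS2 depletion at 21.9, 25.4 and 21.3 CPM. The highest auxin library lay far below the lower control, and the Zzz3 auxin and Yeats2 auxin libraries overlapped each other. The log2 FC was -1.12 (SE 0.13) after ZZZ3 depletion and -1.35 (SE 0.13) after YEATS2 depletion. These SEs do not allow for the choice of Ccne2 by its fall. Between 434 and 1247 reads per library lie behind both log2 FC values, so counting error is small.

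Ccne1, the other gene for cyclin E, had a much smaller difference. It stood at 196 and 225 CPM in the controls, at 188, 184 and 176 CPM after ZZZ3 depletion and at 193, 184 and 186 CPM after YEATS2 depletion. All 6 auxin libraries lay below both controls, but the nearest were close (193 against 196 CPM). The log2 FC was -0.20 (SE 0.11, 95% interval -0.44 to 0.03, adjusted P = 0.295) after ZZZ3 depletion and -0.17 (SE 0.11, 95% interval -0.40 to 0.07, adjusted P = 0.506) after YEATS2 depletion, and neither passed the test. The intervals leave room for a moderate fall of Ccne1, with a lowest bound of -0.44. With the dependence on GC content and length taken out of each library, the values of Ccne1 were -0.30 and -0.25. They were -0.30 and -0.26 without Control replicate 1, and -0.10 and -0.06 without Control replicate 2.

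Reads of both cyclin E genes can be told apart. Ccne1 (ENSMUSG00000002068) lies on the minus strand at chr7:38097984-38107534 and Ccne2 (ENSMUSG00000028212) on the plus strand at chr4:11191351-11204779 of GRCm38, the assembly of mm10. The longest exact run that any annotated transcript of Ccne1 shares with one of Ccne2 is 18 bases, so a read longer than that matches no more than 1 of the genes exactly. The run lies in the coding sequence of both. With 30 coding bases on either side, the stretch reaches from exon 7 to exon 8 in each gene, between chr7:38099846-38100593 and between chr4:11197261-11198767. It is shown here from GENCODE transcripts and written as DNA, with the run in capitals, the longest exact match of both mRNAs.
Ccne1: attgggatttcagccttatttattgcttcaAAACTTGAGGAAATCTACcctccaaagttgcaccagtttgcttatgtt
Ccne2: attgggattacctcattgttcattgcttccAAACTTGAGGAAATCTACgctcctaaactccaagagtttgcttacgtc
Outside this run the sequences part quickly, and over the whole coding sequence Ccne1 had 48.9% GC and Ccne2 39.8%.

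The make-up of cyclin E RNA differed in the same way. Ccne2 gave 23.4% (95% Wilson interval 22.2 to 24.5) and 20.1% (19.1 to 21.1) of the cyclin E reads in the controls. After ZZZ3 depletion the share was 11.7% (10.8 to 12.5), 12.5% (11.7 to 13.4) and 14.2% (12.99 to 15.5), and after YEATS2 depletion it was 10.2% (9.39 to 10.98), 12.1% (11.3 to 13) and 10.3% (9.49 to 11.1). These intervals cover counting error alone, and no auxin library overlapped a control. The mean share was 21.7% ± 2.31 (SD, n = 2), 12.8% ± 1.28 (n = 3) and 10.9% ± 1.11 (n = 3). Put the other way, there were 3.63 reads of Ccne1 for each read of Ccne2 in the controls, 6.87 after ZZZ3 depletion and 8.27 after YEATS2 depletion. Per kb of exon, Ccne1 and Ccne2 together came to 95.7 ± 7.02 CPM in the controls, 76.3 ± 1.72 after ZZZ3 depletion and 77.1 ± 1.54 after YEATS2 depletion, and Ccne2 made up 17.4%, 10.1% and 8.49% of it, so Ccne1 carried most cyclin E RNA in every group. Since these shares contain the fall for which Ccne2 was chosen, they carry no test.

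**Figure D1:**
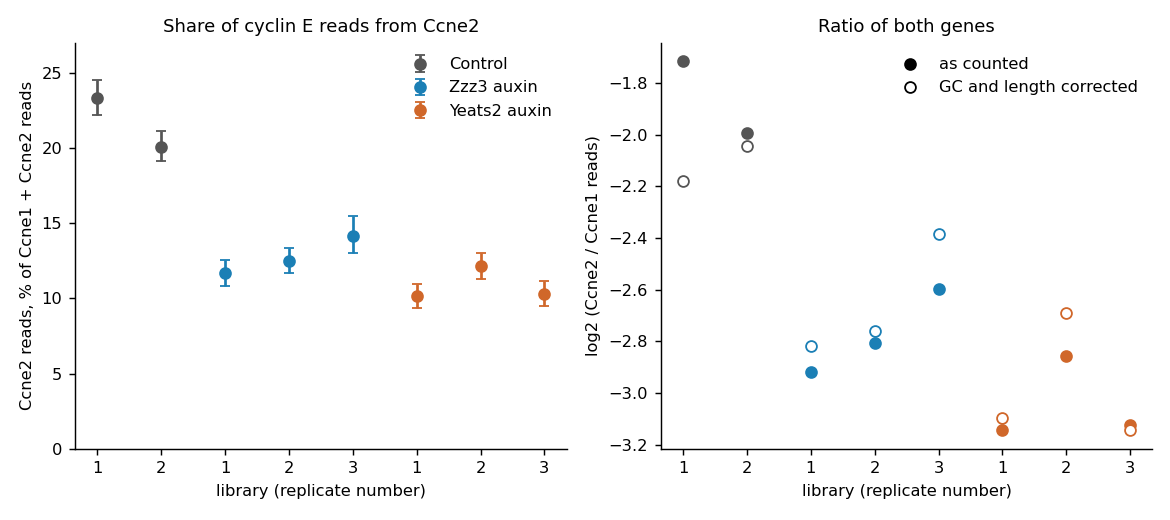
Left, share of Ccne1 plus Ccne2 reads that came from Ccne2 in each library (%, bars are 95% Wilson intervals). Right, log2 ratio of Ccne2 to Ccne1 reads in each library as counted (filled) and after correction for GC content and length (open), grey Control, blue Zzz3 auxin, orange Yeats2 auxin. Both controls lie above all 6 auxin libraries in either panel, and the gap between Control replicate 1 and Zzz3 auxin replicate 3 is smaller after the correction.

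GC content bears on this contrast. The longest Ccne2 transcript has 36.3% GC, and only 1.8% of tested genes are lower, while Ccne1 has 52.7%. Genes as AT-rich and as long as Ccne2 stood higher by 0.33 (log2) in Control replicate 1 and lower by -0.12 in Zzz3 auxin replicate 3, in the same direction as the fall of Ccne2. With the dependence on GC content and length taken out of each library, the log2 FC of Ccne2 was -0.84 after ZZZ3 depletion and -1.10 after YEATS2 depletion, and the ratio of Ccne2 to Ccne1 differed from control by -0.54 in place of -0.92 and by -0.87 in place of -1.19 (log2). Without Control replicate 1 the log2 FC was -1.09 and -1.31, and without Zzz3 auxin replicate 3 it was -1.17 after ZZZ3 depletion. Over all 15 alternative settings the log2 FC of Ccne2 lay between -1.17 and -0.84 after ZZZ3 depletion and between -1.43 and -1.10 after YEATS2 depletion.

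A second feature of the locus is Ints8, a subunit gene of the Integrator complex, which runs on the opposite strand and shares 609 exon bases with Ccne2 (17.4% of the exon bases of Ccne2). Reads there cannot be assigned to 1 gene unless the counting used strand, which the sources used here do not state. Ints8 stood at 143 and 113 CPM in the controls, 130, 138 and 75.8 CPM after ZZZ3 depletion and 129, 143 and 138 CPM after YEATS2 depletion. Its groups overlapped, with a log2 FC of -0.16 (adjusted P = 0.706) and 0.09 (adjusted P = 0.871).

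The depletions were then set against each other, a contrast between the auxin groups. Its spread, filter and scaling came from the fit to all libraries, controls included. Ccne2 was lower after YEATS2 depletion than after ZZZ3 depletion by a log2 FC of -0.22 (SE 0.12, 95% interval -0.49 to 0.05, edgeR adjusted P = 0.779), with overlapping libraries. None of the 10 genes was called in this comparison, in which edgeR called 0 of 17532 genes (0.0%), 1095 had an unadjusted P under 0.05 and DESeq2 called 3. The libraries of both depletions overlapped for all 10 genes, where 5.82% of tested genes were lower and 5.25% higher without overlap. For Ccne1 the log2 FC between the depletions was 0.04 (95% interval -0.17 to 0.25, adjusted P = 0.939), and for Cdkn1b it was -0.09 (95% interval -0.40 to 0.22, adjusted P = 0.900). The least certain was Ccnd2, with -0.52 and an interval from -1.52 to 0.49 (adjusted P = 0.825).

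Among the D-type cyclins, which link growth signals to CDK4 and CDK6, Ccnd1 had the highest mean CPM. It stood at 171 and 196 CPM in the controls, 317, 226 and 186 CPM after ZZZ3 depletion and 248, 255 and 259 CPM after YEATS2 depletion. Yeats2 auxin lay above the controls in all 3 libraries, whereas Zzz3 auxin replicate 3 fell within the control range. Log2 FC reached 0.41 (SE 0.19, adjusted P = 0.230) after ZZZ3 depletion and 0.47 (SE 0.19, adjusted P = 0.276) after YEATS2 depletion. The first was 0.18 without Zzz3 auxin replicate 1, its highest library. Neither value passed, although Yeats2 auxin passed with an adjusted P of 0.0413 without the filter on low counts and 0.0317 when only the compared groups were fitted. Ccnd1 shares 23.4% of its exon bases with LTO1 on the opposite strand, whose log2 FC was -0.28 and 0.22 (adjusted P = 0.371 and 0.568). The share with an opposite-strand gene was smaller for Cdk4 (19.7%, Tspan31), Ccna2 (12.5%, Exosc9) and Ccnd3 (4.11%, Bysl). It was smaller still for Ccnd2 (3.91% and 3.95%, with a pair of genes), Cdk6 (2.63%, Gm17590) and Cdk2 (0.547%, Pmel). The pair beside Ccnd2 held 0 reads in every library, and Gm17590 held 0 to 3. No annotated gene overlapped Ccne1 or Cdkn1b.

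Ccnd3 ran at 93.0 and 115 CPM in the controls and spread widely after ZZZ3 depletion, with 75.2, 108 and 148 CPM, and less after YEATS2 depletion, with 128, 114 and 118 CPM. Its log2 FC was 0.08 (SE 0.22, adjusted P = 0.861) and 0.21 (SE 0.22, adjusted P = 0.704), and the first turned negative without Control replicate 1 (-0.06) or Zzz3 auxin replicate 3 (-0.17). Ccnd2 was almost silent, at 13 to 68 reads per library and 0.64 to 2.61 CPM, with a log2 FC of 0.54 (SE 0.53, adjusted P = 0.592) and 0.02 (SE 0.54, adjusted P = 0.993). Its highest library was Zzz3 auxin replicate 1 and its lowest Control replicate 2, and depth here cannot show any but a large change.

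Per kb of exon, Ccnd1 made up 77.1% and 76.0% of D-type cyclin RNA in the controls, 88.4%, 79.5% and 69.9% after ZZZ3 depletion and 78.2%, 80.5% and 80.1% after YEATS2 depletion. Ccnd3 accounted for nearly all of the rest. These shares divide by exons merged over all annotated transcripts, 4709 bases for Ccnd1 and 8775 for Ccnd3. A shorter expressed Ccnd3 RNA would raise its share, and which transcripts were expressed was not examined. The mean share of Ccnd1 was 76.55% ± 0.82 (SD, n = 2) in the controls, 79.3% ± 9.23 (n = 3) after ZZZ3 depletion and 79.6% ± 1.25 (n = 3) after YEATS2 depletion. After ZZZ3 depletion the libraries lay on both sides of the controls. In Zzz3 auxin replicate 1 Ccnd3 made up 11.2%, against 22.55% and 23.9% in the controls.

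Ccna2, whose cyclin A takes over CDK2 in S phase, stood at 442 and 412 CPM in the controls, 373, 363 and 386 CPM after ZZZ3 depletion and 364, 335 and 359 CPM after YEATS2 depletion. All auxin libraries were below both controls, by a small margin, with a log2 FC of -0.19 (SE 0.10, adjusted P = 0.313) and -0.28 (SE 0.10, adjusted P = 0.254). Neither difference passed the test, and the first was -0.08 after the correction for GC content and length.

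**Figure D2:**
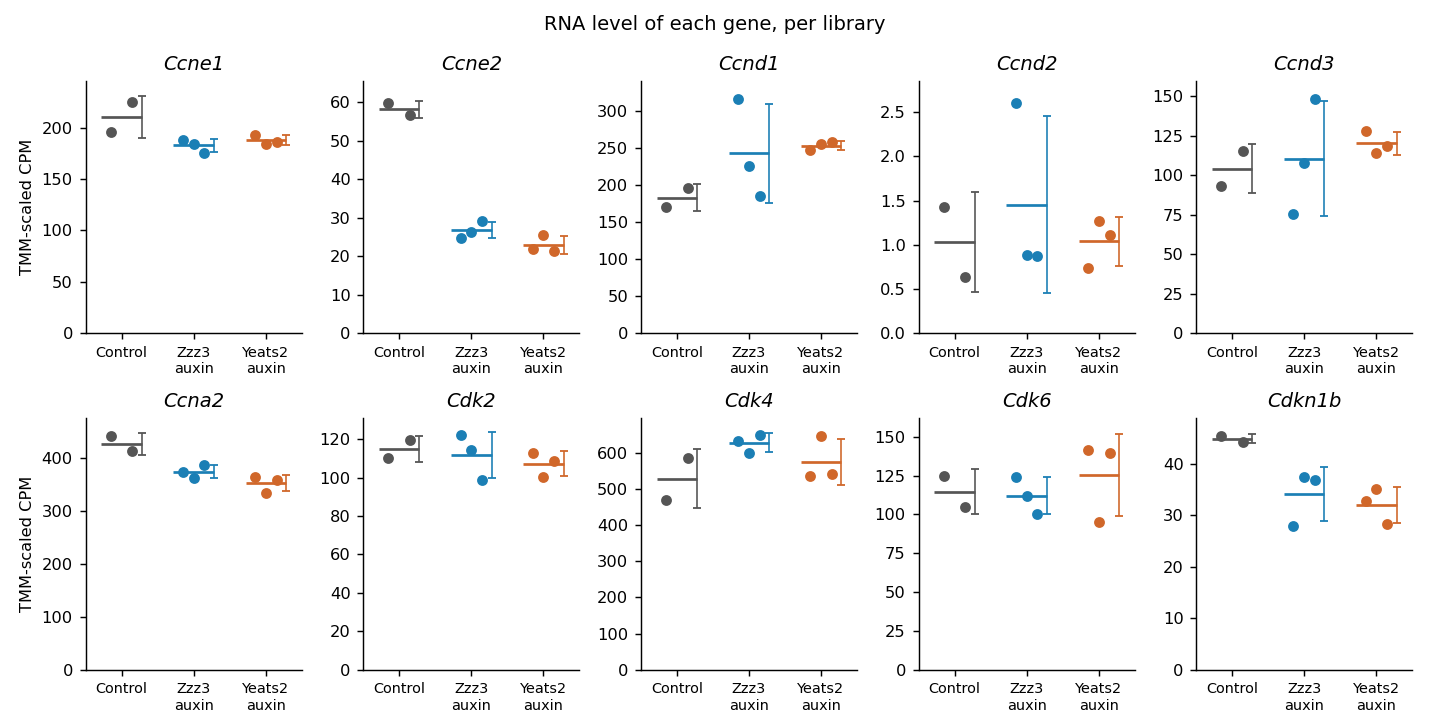
RNA level of the 10 genes in TMM-scaled CPM (linear axes from 0), a point for each library, a line for the group mean and a bar for 1 SD (n = 2 Control, 3 Zzz3 auxin, 3 Yeats2 auxin). Ccne2 separates from the controls by the widest margin, Ccne1, Ccna2 and Cdkn1b lie lower in all auxin libraries by small margins, and the kinases overlap with the controls in at least one auxin group.

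The kinases showed little. Cdk2, the partner of cyclins E and A, stood at 110.0 and 119.7 CPM in the controls and between 98.7 and 122 CPM in the auxin libraries, with a log2 FC of -0.04 (SE 0.12, adjusted P = 0.887) after ZZZ3 depletion and -0.10 (SE 0.12, adjusted P = 0.749) after YEATS2 depletion. Cdk4, a partner of cyclin D, stood at 470.3 and 587 CPM in the controls, 634, 599 and 649 CPM after ZZZ3 depletion and 535, 647 and 540.1 CPM after YEATS2 depletion. Zzz3 auxin lay above both controls, yet the log2 FC of 0.25 (SE 0.13, adjusted P = 0.305) did not pass, nor did 0.12 (SE 0.13, adjusted P = 0.716) after YEATS2 depletion. Without Control replicate 1 these were 0.09 and -0.03, without Control replicate 2 they were 0.42 and 0.29. Cdk6, the other partner of cyclin D, was at 125 and 104 CPM in the controls, between 100.2 and 124 CPM after ZZZ3 depletion and between 94.9 and 142 CPM after YEATS2 depletion, with a log2 FC of -0.03 (adjusted P = 0.934) and 0.13 (adjusted P = 0.771). Per kb of exon, Cdk6 was a minor part of CDK4/6 RNA, with a mean of 4.89%, 3.98% and 4.92% in Control, Zzz3 auxin and Yeats2 auxin. This share divides by merged exons of 13989 bases for Cdk6 and 3249 for Cdk4.

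Cdkn1b, which encodes the inhibitor p27, had the second lowest log2 FC of the set in both depletions. It stood at 45.4 and 44.2 CPM in the controls, 27.97, 37.3 and 36.9 CPM after ZZZ3 depletion and 32.8, 35.1 and 28.2 CPM after YEATS2 depletion. All 6 auxin libraries were lower than both controls, which were close together. Log2 FC came to -0.40 (SE 0.16, adjusted P = 0.174) and -0.48 (SE 0.16, adjusted P = 0.192), and neither passed the test. After the correction for GC content and length the values were -0.21 and -0.35, and without Zzz3 auxin replicate 1 the first was -0.26. Per kb of exon, there were 4.71 and 5.64 units of D-type cyclin RNA for each unit of Cdkn1b in the controls, 12.4, 7.37 and 6.97 after ZZZ3 depletion and 9.33, 8.74 and 11.1 after YEATS2 depletion. This ratio was not tested and not corrected for GC content and length. It combines differences that did not pass the test in the main fit.

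**Figure D3:**
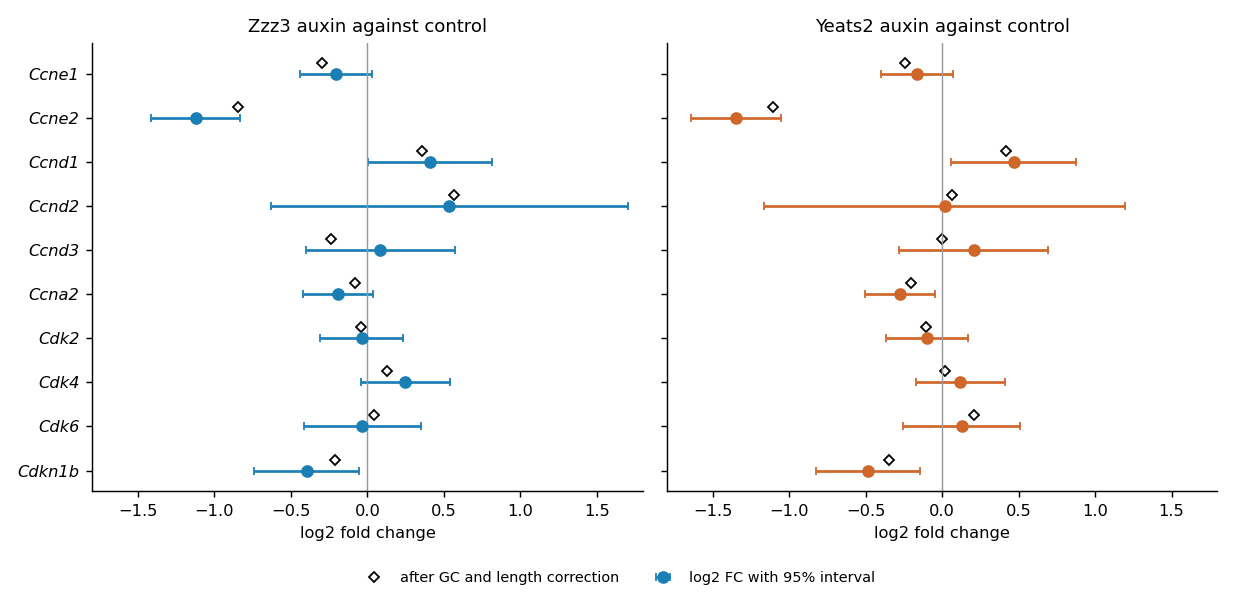
Log2 fold change of the 10 genes against control after ZZZ3 depletion (left) and Yeats2 auxin (right) from edgeR, with 95% intervals, and as open diamonds the value after correction for GC content and length. The intervals of Ccne2 do not allow for its choice by its fall in these comparisons and are no test. Ccne2 lies at -1.12 and -1.35, the other 9 genes lie between -0.48 and 0.54, and the correction moves Ccne2 toward 0 and Ccne1 away from it.

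Leaving aside Ccne2, which was chosen on these contrasts, 0 of the other 9 genes were called in either comparison with control. Over all tested genes, 0.753% were called after ZZZ3 depletion (0.257% lower, 0.496% higher) and 0.445% after YEATS2 depletion (0.114% lower, 0.331% higher). Without overlap with the controls, 3 of the other 9 genes (Ccne1, Ccna2 and Cdkn1b) were lower and 1 (Cdk4) higher after ZZZ3 depletion, where 18.9% of all genes were lower and 16.8% higher. After YEATS2 depletion the same 3 were lower and Ccnd1 was higher, where 21.0% of all genes were lower and 19.3% higher. With 9 genes these counts are too small to compare closely with the background, and both comparisons share the same controls. Calls over all genes rest on few controls: without Control replicate 1 edgeR called 0 genes in either comparison, with 1569 and 1129 at an unadjusted P under 0.05, and DESeq2 on all libraries called 1080 and 398. The median log2 FC of the other 9 genes was -0.03 after ZZZ3 depletion and 0.02 after YEATS2 depletion, beside 0.01 and -0.01 over all tested genes.

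Levels were set beside each other per kb of exon, where the length joins the exons of all annotated transcripts of a gene. That length runs from 2662 bases for Ccne1 to 13989 for Cdk6. It can be longer than the RNA expressed, so the order of genes depends on it. In the controls Cdk4 was highest with 163 CPM per kb, followed by Ccna2 with 105, Ccne1 with 79.1, Ccnd1 with 39.0, Cdk2 with 18.5, Ccne2 with 16.6, Ccnd3 with 11.8, Cdkn1b with 9.85, Cdk6 with 8.19 and Ccnd2 with 0.11. The 2 control libraries of each gene lay apart from those of its neighbour in this order, most narrowly for Cdk2 (at least 17.7) and Ccne2 (at most 17.1). In the auxin groups Ccne2 stood at 7.65 ± 0.61 CPM per kb (SD, n = 3) after ZZZ3 depletion and 6.54 ± 0.64 (SD, n = 3) after YEATS2 depletion, in the range of Cdkn1b, with 7.48 ± 1.16 and 7.04 ± 0.76, while the level of Cdk2 stayed at 17.97 ± 1.92 and 17.3 ± 1.03.

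**Figure D4:**
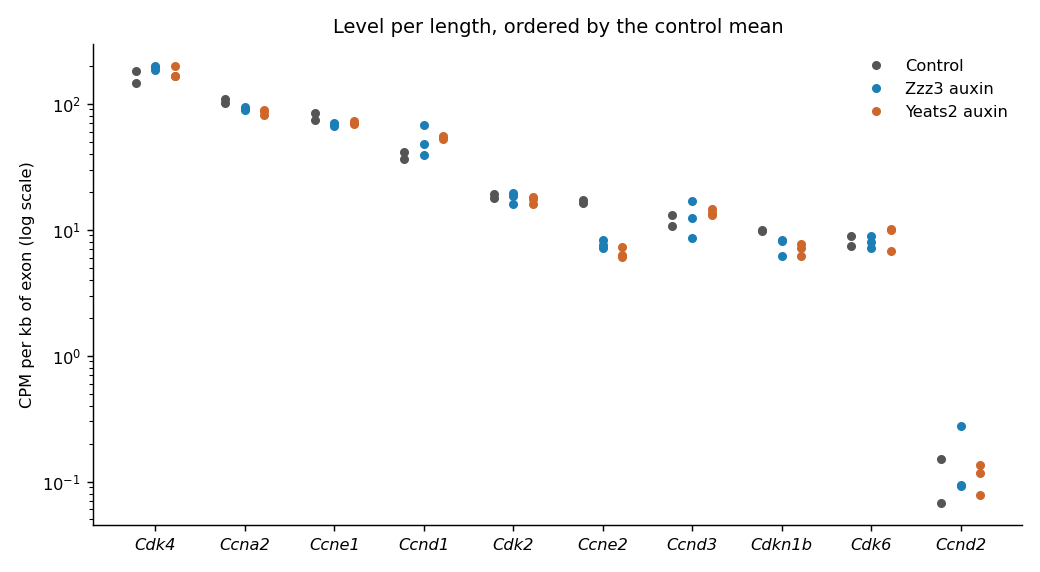
Level of the 10 genes in CPM per kb of exon (log axis), with the exons of all annotated transcripts merged. Each point is a library, genes are ordered by their control mean and colours show the group. Ccne2 drops from beside Cdk2 (16.6 and 18.5 in the controls) to the range of Cdkn1b in both auxin groups, and Ccnd2 lies far below all others.

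Promoter windows of RefSeq (GRCm38.p6, 250 bases before to 50 after the start) matched 6 of the 10 genes in 7 windows. Ccne2, Ccnd1, Ccnd2 and Ccna2 had no window, so whether their promoters hold such sites was not examined. Because G1/S genes are known E2F targets, the windows were searched on both strands for the 4 E2F sites TTTCCCGC, TTTCGCGC, TTTGCCGC and TTTGGCGC (distinct sites that differ in their middle letters). Cdk2 alone held one, GCGGGAAA, the reverse complement of TTTCCCGC, which starts at base 111 of the window, 140 bases before the start. Of 32851 windows, 2.26% held any of the 4 sites and 1.07% held this one. The window of Cdk2, on the minus strand at chr10:128705002-128705301, is shown with the site in capitals, beside that of Ccne1, on the minus strand at chr7:38107441-38107740, a window of 76.0% GC that held none.
Cdk2: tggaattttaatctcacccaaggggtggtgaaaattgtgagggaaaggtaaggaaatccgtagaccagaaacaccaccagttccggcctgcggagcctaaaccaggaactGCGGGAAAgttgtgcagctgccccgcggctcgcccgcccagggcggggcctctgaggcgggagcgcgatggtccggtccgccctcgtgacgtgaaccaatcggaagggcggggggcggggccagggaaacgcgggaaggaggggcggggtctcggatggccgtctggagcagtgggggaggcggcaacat
Ccne1: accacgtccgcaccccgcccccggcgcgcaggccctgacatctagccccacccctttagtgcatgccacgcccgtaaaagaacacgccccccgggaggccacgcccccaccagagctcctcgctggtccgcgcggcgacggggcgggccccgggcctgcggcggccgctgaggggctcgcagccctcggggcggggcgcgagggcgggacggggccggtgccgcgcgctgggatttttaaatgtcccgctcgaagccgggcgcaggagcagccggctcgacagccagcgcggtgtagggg
A match is no more than a match of letters, and RNA of neither gene was called in either depletion.

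The pathway around these genes was described through 6 lists with 71 genes, all tested. After ZZZ3 depletion 1 of the 71 was called higher and 0 lower, and after YEATS2 depletion edgeR called 0. Without overlap with the controls, 13 of the 71 were higher and 20 lower after ZZZ3 depletion, where 16.8% of all tested genes were higher and 18.9% lower. After YEATS2 depletion 20 of the 71 were higher and 24 lower, where 19.3% of all tested genes were higher and 21.0% lower. Whether the lists differ from all genes in this was not tested. The log2 FC was above 0 for 30 and below 0 for 41 genes after ZZZ3 depletion, and above for 29 and below for 42 after YEATS2 depletion.

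The called gene was Cdkn2b, which encodes p15, an inhibitor of CDK4 and CDK6. It was weakly expressed, at 2.22 and 1.95 CPM in the controls, 7.25, 6.56 and 6.16 CPM after ZZZ3 depletion and 4.56, 4.99 and 2.93 CPM after YEATS2 depletion. Both auxin groups lay above the controls. The log2 FC was 1.68 (SE 0.27, edgeR adjusted P = 0.0248) after ZZZ3 depletion and 1.00 (SE 0.27, adjusted P = 0.136) after YEATS2 depletion, and the difference between the depletions did not pass the test (log2 FC -0.68, adjusted P = 0.779). The value after YEATS2 depletion passed with DESeq2 (adjusted P = 0.0404) and without the filter on low counts (0.0267). The call after ZZZ3 depletion was lost without Control replicate 1 (adjusted P = 0.293), Control replicate 2 (0.0917), Zzz3 auxin replicate 1 (0.0575) or Yeats2 auxin replicate 1 (0.0663), and when only Control and Zzz3 auxin were fitted (0.142). The other 5 CDK inhibitors were not called, among them Cdkn1c (p57), with a log2 FC of -0.46 and -0.94 (adjusted P = 0.512 and 0.293), and Cdkn2a, with 0.52 and -0.01 (adjusted P = 0.533 and 0.997). Both lay under 7 CPM in every library. Cdkn2c, which averaged under 1 CPM, had a log2 FC of -0.23 and -1.18, the lowest of the list after YEATS2 depletion.

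Of 13 pocket proteins and E2F factors, 0 were called in either comparison, and the median log2 FC was -0.06 after ZZZ3 depletion and -0.01 after YEATS2 depletion. E2f1, an activator of S phase genes, stood at 21.2 and 20.4 CPM in the controls, 29.4, 29.98 and 24.0 CPM after ZZZ3 depletion and 32.7, 33.4 and 30.9 CPM after YEATS2 depletion. Every auxin library was higher than both controls, with a log2 FC of 0.42 (SE 0.14, adjusted P = 0.128) and 0.64 (SE 0.14, adjusted P = 0.0854), and with DESeq2 the value after YEATS2 depletion passed (adjusted P = 0.00593). After the correction for GC content and length, the values of E2f1 were 0.08 (adjusted P = 0.88) and 0.39 (adjusted P = 0.43). E2f8, an E2F that represses, had a log2 FC of -0.49 and -0.67 (adjusted P = 0.149 and 0.138), the second of which passed with DESeq2 (adjusted P = 0.0347), and Rbl2, the pocket protein p130, had 0.55 and 0.53 (adjusted P = 0.119 and 0.202). So the E2F family gave no one direction.

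Nor did the E2F targets of S phase entry share a direction. Of 22 such genes 0 were called, 9 lay above and 13 below 0 after ZZZ3 depletion, and their median log2 FC was -0.04 after ZZZ3 depletion and -0.03 after YEATS2 depletion. Mcm5, a subunit of the replicative helicase, stood at 442 and 602 CPM in the controls, 736, 692 and 818 CPM after ZZZ3 depletion and 743, 811 and 736 CPM after YEATS2 depletion, with a log2 FC of 0.52 (adjusted P = 0.0897) and 0.55 (adjusted P = 0.136). Both passed with DESeq2 (adjusted P = 0.0257 and 0.0305), and without Control replicate 1 they were 0.31 and 0.34. Mcm2 of the same helicase had 0.41 and 0.53 (adjusted P = 0.155 and 0.157). Rrm2, the small subunit of ribonucleotide reductase, had -0.44 and -0.09 (adjusted P = 0.207 and 0.857), and its lowest library was Zzz3 auxin replicate 3 with 217 CPM, against 440 and 364 CPM in the controls.

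Turnover of cyclins and p27 by ubiquitin ligases was covered by 12 tested genes, with 0 calls and a median log2 FC of -0.06 and -0.02. Fbxw7, the F-box protein that brings cyclin E to its ligase, stood at 90.8 and 80.2 CPM in the controls, 119, 142 and 106 CPM after ZZZ3 depletion and 128, 149 and 140.5 CPM after YEATS2 depletion. All auxin libraries were higher than both controls. The log2 FC was 0.52 (SE 0.14, adjusted P = 0.0888) and 0.70 (SE 0.14, adjusted P = 0.0665) with edgeR, which did not pass, and DESeq2 gave adjusted P values of 0.0298 and 0.00236. Fzr1, the Cdh1 activator of the anaphase-promoting complex, had 0.45 and 0.55 (adjusted P = 0.224 and 0.240), or 0.06 and 0.30 after the correction for GC content and length.

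Of 8 genes for activation and phosphorylation of CDKs, 0 were called, 7 had a log2 FC below 0 in each comparison, and the median was -0.12 in both. Ccnh, the cyclin of the CDK-activating kinase, had -0.38 and -0.30 (adjusted P = 0.265 and 0.479), or -0.11 and -0.08 after the correction for GC content and length, and Cdc25c, a phosphatase that activates CDK1, had -0.25 and -0.40 (adjusted P = 0.378 and 0.259). Of the inhibitory kinases, Wee1 had -0.38 and -0.23 (adjusted P = 0.183 and 0.515) and Pkmyt1 had 0.68 and 0.15 (adjusted P = 0.174 and 0.819). The 10 G2/M cyclins and kinases had 0 calls and a median of 0.16 and 0.17. Plk1 had 0.48 and 0.33 (adjusted P = 0.113 and 0.338) and Cdc20 had 0.42 and 0.38 (adjusted P = 0.123 and 0.239), whereas Bub1, a kinase of the spindle checkpoint, had -0.37 and -0.47 (adjusted P = 0.126 and 0.135). For Bub1 the second passed with DESeq2 (adjusted P = 0.0451) and with only Control and Yeats2 auxin fitted (0.0316), and after the correction for GC content and length the values were -0.14 and -0.30. Plk1 was at 0.26 and 0.17 and Cdc20 at 0.23 and 0.24 after that correction.

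**Figure D5:**
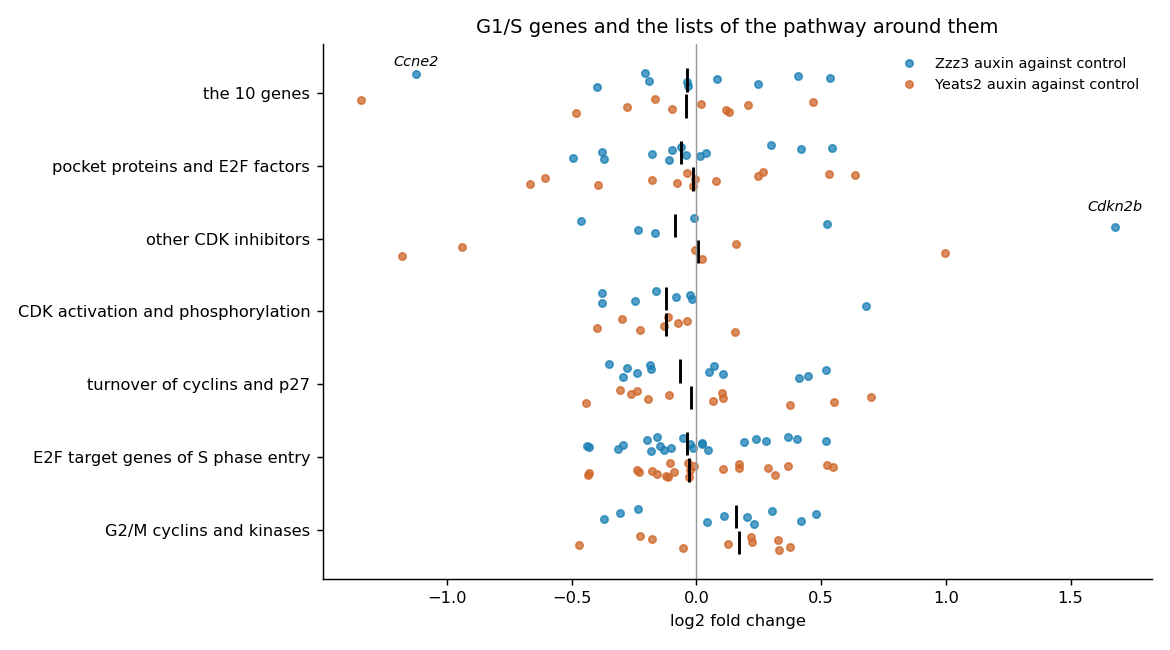
Log2 fold change against control of the 10 genes and of each gene in the 6 lists, blue for Zzz3 auxin, orange for Yeats2 auxin, with a black bar at the median of each list. The medians lie between -0.12 and 0.17, and Ccne2 (-1.12 after ZZZ3 depletion) and Cdkn2b (1.68) stand farthest from 0 after ZZZ3 depletion.

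Last, genes were ranked by how closely their log2 CPM followed that of Ccne2 over the 8 libraries, among 11104 protein-coding genes that averaged 2 CPM or more. The closest were Nae1 (Pearson r = 0.99), which encodes a subunit of the enzyme that activates NEDD8, Zmym6 (0.99), Orc6 (0.98), a subunit of the origin recognition complex, Rad51c (0.98), a recombination protein, and Fam136a (0.98). Nae1 stood at 112 and 111 CPM in the controls, 78.8, 78.6 and 80.3 CPM after ZZZ3 depletion and 75.05, 76.4 and 72.3 CPM after YEATS2 depletion. Orc6 stood at 156 and 161 CPM in the controls, 97.0, 103 and 118 CPM after ZZZ3 depletion and 92.0, 106 and 94.96 CPM after YEATS2 depletion. Both separated from the controls as Ccne2 did, by a smaller fold. Within the set, r with Ccne2 was 0.88 for Ccna2, 0.87 for Cdkn1b, 0.68 for Ccne1 and -0.75 for Ccnd1. All these values share the same libraries and the same step between controls and auxin, the 5 closest genes had 39.0 to 47.0% GC, and r is given as a description of likeness only.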

How the data were processed

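The deposited values are counts, 1 file per library, and no normalization had been applied. According to the methods of the study and the processing notes of the submitters, the authors trimmed reads, discarded those of ribosomal RNA, mapped what remained to mm10 by STAR 2.5.3a and assigned reads with 1 alignment to genes of the Ensembl annotation by HTSeq 0.6.1p1 in union mode. Whether counting used strand is not given in the sources used here. The labels name poly(A) RNA, whereas the protocol describes ribosomal RNA depletion and a stranded total RNA kit. Of each file, 55401 gene rows were used and 5 summary rows for reads without a gene were set aside, and ambiguous reads were 0.952 to 1.78% of uniquely aligned reads. GENCODE annotation of GRCm38 named 55141 identifiers, and 260 had no match.

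Counts were fitted in R 4.3.3 with edgeR 4.0.16: filterByExpr left 17532 genes, TMM factors (trimmed mean of M values) scaled the library sizes, and all 8 libraries entered 1 robust quasi-likelihood fit with a mean per group. Two-sided P values were corrected over all tested genes of a comparison by the Benjamini-Hochberg method, and an adjusted P under 0.05 made a call. The standard error is the size of the log2 FC divided by the square root of F. Levels are TMM-scaled CPM, divided by kb of merged exons for comparison between genes. Library totals of 14315120 to 27884704 reads make counting error small except at low counts such as those of Ccnd2, and precision is set by having 2 controls. No pair of replicates agreed within sampling noise. Python 3.11.15 with numpy 2.4.6, pandas 2.3.3, scipy 1.17.1 and matplotlib 3.10.9 made tables and figures.

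The 10 genes, the 6 lists and the settings were chosen with earlier results of these data known. All 10 genes are named. In each list, genes called against control are named, with the 2 largest absolute log2 FC in each comparison among genes averaging 1 CPM or more, and the 5 protein-coding genes most like Ccne2 by Pearson r. Cdkn2c is named besides, as the lowest CDK inhibitor after YEATS2 depletion. Of 72 listed genes, 71 were matched by symbol. Alternatives were DESeq2 1.42.0, median-of-ratios scaling, no filter, a floor of 1 CPM on the mean, only the compared groups, the replicate number as a block, a lowess correction (span 0.3) of every library for GC content and exon length, and leaving out each library in turn. The pipeline was tested on simulated data.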

Additional observations from a re-analysis of the deposited data

How the results depend on the processing

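The log2 FC of Ccne2 stayed below 0 under all 15 alternatives in both comparisons with control, which carry no test. These alternatives refit the libraries by which Ccne2 was chosen, so its sign there was largely set by that choice. Of 420 tested values of the 10 genes under alternatives, 399 kept direction and side of the threshold, 19 changed sign and 2 newly passed. The correction for GC content and length moved Ccne2 to -0.84 (Zzz3 auxin) and -1.10 (Yeats2 auxin) and its ratio to Ccne1 to -0.54 and -0.87 (log2, against control), while leaving out libraries kept the ratio between -1.06 and -0.78 and between -1.33 and -1.05.

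Counts of called genes moved far more. In Zzz3 auxin, 132 became 1542 without the filter, 1080 with DESeq2, 42 with the replicate block and 0 with only the compared groups (2606 at an unadjusted P under 0.05), and 0 to 841 without single libraries. In Yeats2 auxin, 78 became 553, 398, 32 and 454 in the same order, 132 after the GC and length correction, and 0 to 217 without single libraries. Between the depletions, 0 became 117 without the filter, 3 with DESeq2 and 0 to 1 without single libraries. Without Control replicate 1, edgeR called 0 genes in each comparison with control (1569 and 1129 at an unadjusted P under 0.05). Same-numbered replicates deviated together with correlations from -0.338 to 0.305, and differently numbered ones with correlations from -0.371 to 0.371. With 2 controls, the deviations of both are mirror images, so these correlations cannot settle whether the numbers pair the libraries. The cause of these moves was not tested.

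Some values near 0 changed sign. With the replicate block, log2 FC was -0.062 for Ccnd3 in Zzz3 auxin, and in Yeats2 auxin -0.039 for Zzz3, 0.32 for Cdkn2a and 0.006 for Rrm2. After the GC and length correction, it was -0.24 for Ccnd3 and 0.043 for Cdk6 in Zzz3 auxin, and -0.001 for Ccnd3 and -0.031 for Pkmyt1 in Yeats2 auxin. Cdkn2a in Yeats2 auxin was also 0.00 with median-of-ratios scaling, 0.017 without the filter, 0.003 with a mean of at least 1 CPM and 0.015 with only the compared groups. Without single libraries, log2 FC in Zzz3 auxin ran from -0.21 to 1.22 for Ccnd2, -0.17 to 0.31 for Ccnd3, -0.10 to 0.055 for Cdk2, -0.15 to 0.096 for Cdk6, -0.86 to 0.069 for Cdkn1c, -0.061 to 0.83 for Cdkn2a and -0.32 to 0.079 for Ints8. In Yeats2 auxin it ran from -0.46 to 0.70 for Ccnd2, -0.032 to 0.29 for Cdk4, -0.31 to 0.25 for Cdkn2a, -0.065 to 0.27 for Ints8, -0.12 to 0.50 for Pkmyt1 and -0.22 to 0.053 for Rrm2. Between the depletions it ran from -0.096 to 0.30 for Ccnd1, -0.81 to 0.24 for Ccnd2, -0.093 to 0.39 for Ccnd3 and -0.14 to 0.008 for Cdk2. With 13 to 68 reads per library, Ccnd2 is limited by depth.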
